A study of Mus musculus with 6 samples.

Results

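The 10 genes described here encode digestive enzymes, or the cofactor of one, that are best known from the exocrine pancreas: Cela1, Clps, Pnliprp1, Pnliprp2, Amy2a5, Amy2b, Cpa1, Ctrb1, Prss2 and Cel. They were taken by symbol from a deposited table of 20312 gene rows, and all 10 were found. The set had been chosen on this same comparison of genotypes, so the difference of its members between genotypes is described without a test. RNA came from mouse intestine at 5 months of age, with the strain given as 129, and libraries were made with an Illumina TruSeq RNA kit. The control group was 3 libraries of Apc min/+ mice and the knockout group 3 libraries of Apc min/+ mice that were also Sirt7 -/-. All 6 libraries therefore carry the Apc min/+ allele, a truncating change in a brake on Wnt signalling that gives rise to intestinal adenomas, and no library of an animal with intact Apc is among them. The labels give neither the segment of the intestine, nor whether it held tumour, nor whether each library came from its own animal, so the spread behind each p-value is that between these samples and could be technical only.

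Acinar cells of the pancreas make digestive enzymes as inactive precursors (zymogens), pack them into granules and release them into the duodenum when cholecystokinin and secretin signal a meal. There enteropeptidase, a protease anchored on enterocytes, activates trypsin, and trypsin activates the other proteases. The lipases split dietary fat with the help of colipase, amylase cuts starch, and enzymes fixed in the brush border finish the digestion of sugars and peptides. Acinar enzyme genes are driven by PTF1, a complex that binds an E-box next to a second box with the core TTTCCC, together with factors such as NR5A2 and BHLHA15 (MIST1).

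The depth of the 6 libraries was 24987313 to 29603348 reads. Sirt7 stood at 2173 ± 64.5 normalised reads in control and 228 ± 11.1 in knockout (mean ± SD, n = 3 per group), as labelled. The brush border gene Sis stood at 62580.2 to 126739 normalised reads over the 6 libraries, as an intestinal label would have it. Of the 10 enzymes, all passed the filter on low values (at least 10 in at least 3 libraries). However, 4 of them (Cpa1, Ctrb1, Prss2 and Cel) had a control library under 10 and needed the knockout libraries to pass. This favours genes that are higher in knockout. No control library of Cpa1, Prss2 or Cel reached 10, so their groups could not overlap. Values below are reads divided by a size factor per library, which are called normalised reads and are not scaled by gene length. Fold changes are knockout over control, and log2 fold changes with their SE come from a limma fit of log2(value + 1) over 16600 genes, which understates the change of low genes. In bulk tissue, fewer cells of a type and less RNA per cell cannot be told apart.

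Promoter sequences are shown for 5 of the genes, because they let the reader compare the genes of the set with CACCTG and TTTCCC close together (Cela1 and Cel), a trypsinogen, and a pair of neighbouring lipase relatives that behaved differently. Each is the 250 bases before the RefSeq transcription start (GRCm38.p6), read 5′ to 3′ on the strand of the gene. Capitals mark the E-box CACCTG, the box TTTCCC and the TATA box TATAAA, searched on both strands.
Cela1: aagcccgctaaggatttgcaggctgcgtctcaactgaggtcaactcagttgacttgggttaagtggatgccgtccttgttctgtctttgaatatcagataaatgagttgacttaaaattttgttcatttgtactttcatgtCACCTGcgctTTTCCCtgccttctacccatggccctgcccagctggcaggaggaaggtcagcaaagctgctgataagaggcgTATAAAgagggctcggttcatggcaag
Cel: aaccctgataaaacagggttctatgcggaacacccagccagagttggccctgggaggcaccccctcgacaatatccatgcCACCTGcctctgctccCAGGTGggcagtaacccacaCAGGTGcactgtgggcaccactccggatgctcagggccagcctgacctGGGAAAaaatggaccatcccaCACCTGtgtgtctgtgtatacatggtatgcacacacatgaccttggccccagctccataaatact
Prss2: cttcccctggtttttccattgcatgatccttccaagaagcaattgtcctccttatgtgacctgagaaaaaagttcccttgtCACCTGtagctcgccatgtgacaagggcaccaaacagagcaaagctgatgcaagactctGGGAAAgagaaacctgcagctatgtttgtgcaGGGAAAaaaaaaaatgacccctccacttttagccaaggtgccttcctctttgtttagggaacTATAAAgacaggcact
Pnliprp1: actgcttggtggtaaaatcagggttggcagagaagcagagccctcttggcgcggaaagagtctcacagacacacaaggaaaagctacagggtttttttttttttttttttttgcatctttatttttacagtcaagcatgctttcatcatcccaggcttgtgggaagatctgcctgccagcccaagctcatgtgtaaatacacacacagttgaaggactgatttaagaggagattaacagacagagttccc
Pnliprp2: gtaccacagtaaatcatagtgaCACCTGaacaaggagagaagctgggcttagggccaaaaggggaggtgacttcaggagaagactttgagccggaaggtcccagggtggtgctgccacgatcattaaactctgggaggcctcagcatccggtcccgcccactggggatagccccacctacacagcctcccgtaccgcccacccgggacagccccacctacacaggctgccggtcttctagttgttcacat
These windows lie at chr15:100687921-100688170 (minus strand, Cela1), chr2:28563404-28563653 (minus, Cel), chr6:41521526-41521775 (plus, Prss2), chr19:58728637-58728886 (plus, Pnliprp1) and chr19:58759473-58759722 (plus, Pnliprp2). In Cela1 the E-box began 109 bases and TTTCCC 99 bases before the start, with TATAAA at 27 bases. In Cel there were 4 E-boxes in either orientation, and GGGAAA, the reverse of TTTCCC, began 86 bases before the start and thus 21 bases from the nearest of them. Prss2 had an E-box at 169 bases, GGGAAA at 110 and 78 bases, and TATAAA at 16 bases. The Pnliprp2 window held 1 E-box, at 228 bases, and none of the 3 words was found in that of Pnliprp1.

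The RefSeq table held 9 of the 10 promoters, all but that of Clps. CACCTG was found in 5 of the 9 (Cel, Amy2b, Prss2, Cela1 and Pnliprp2), against 17.2% of 32851 promoter windows of the same length. TTTCCC was found in 5 (Cel, Cpa1, Prss2, Ctrb1 and Cela1), against 21.9%, and TATAAA in 4 (Amy2b, Amy2a5, Prss2 and Cela1), against 12.4%. The E-box and TTTCCC began within 30 bases of each other in 2 of the 9, Cel and Cela1, against 0.861% of all windows. AAGGTCA, the site read by NR5A2, was found in Cel and Cela1 as well, against 4.08% of all windows. CAGCTG, another E-box, was found in Amy2a5, Ctrb1 and Cela1, against 13.0% of all windows. It began within 30 bases of TTTCCC in 2 of the 9, Ctrb1 and Cela1, against 0.651% of all windows. These are matches of letters and show neither binding nor its absence.

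All 10 genes were higher in every knockout library than in any control library, and they fell into a large and a small step. For comparison, 33.5% of all 16600 tested genes stood above every control library in the same way, while 31.6% passed the limma test as higher and 30.9% as lower. In 8 of the 10 the log2 fold change was over 2 (a 4-fold rise), as it was for 3.77% of tested genes. The other two, Clps and Pnliprp2, were the members with the most reads per exon length in control. The rule that chose the genes used this contrast, so these counts describe the set and support nothing.

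**Figure D1:**
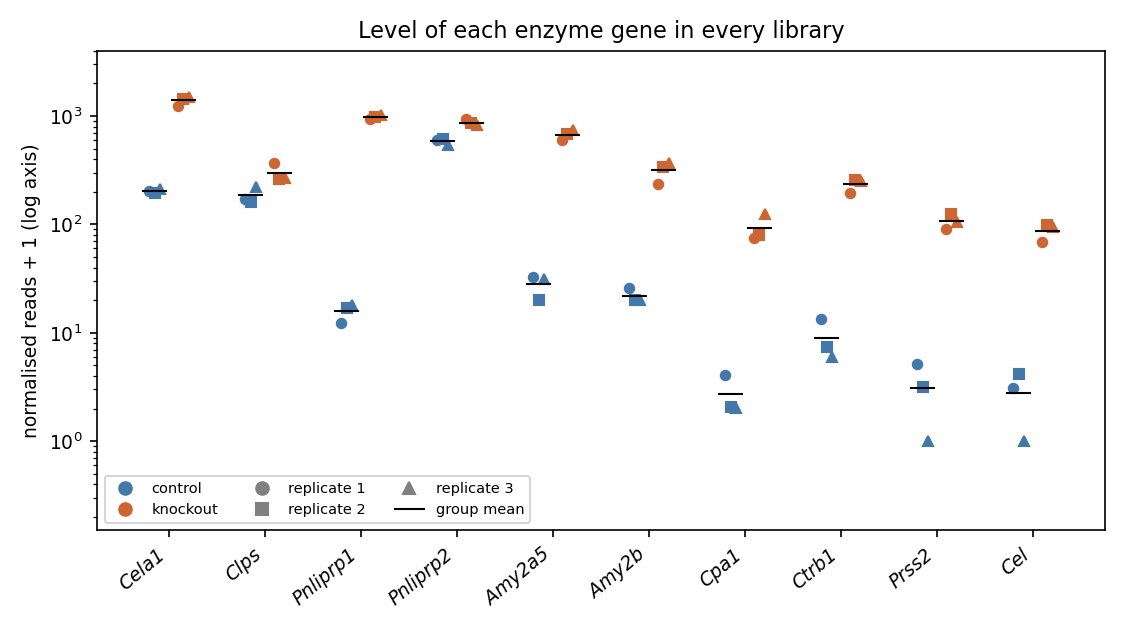
Normalised reads + 1 (log axis) of each of the 10 enzyme genes in each library, with control in blue, knockout in orange, a symbol shape per replicate number and a line at the group mean. In Clps and Pnliprp2 the groups lie close together, with knockout means 1.62 and 1.49 times the control means, while the other genes are separated by 6.89-fold or more.

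Among the proteases, Cela1 is a pancreatic-type elastase. Its normalised reads were 202, 195 and 213 in control and 1245, 1441 and 1509.9 in knockout. The groups did not overlap, and the means of 203 ± 9.03 and 1399 ± 137 (SD, n = 3) gave a ratio of 6.89, with a log2 fold change of 2.77 ± 0.09 (SE). Among the 4 proteases it had the most control reads, 589 against 5 to 23.

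Prss2 encodes a trypsinogen, the precursor that starts the activation cascade. It had 4.13, 2.14 and 0 normalised reads in control and 90.0, 123 and 105 in knockout. Control rested on 6 reads in all, so the ratio of 50.7 carries a 95% counting interval of 23.1 to 139. Such intervals (exact binomial) cover counting error only, as the reads carry no molecular identifiers and several may stem from 1 molecule.

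Ctrb1 encodes chymotrypsinogen B, which trypsin activates. It stood at 12.4, 6.41 and 5.04 in control and 194, 253 and 253 in knockout, a ratio of 29.3 (counting interval 19.4 to 46.6). Cpa1, a carboxypeptidase that trims amino acids from the end of peptides, stood at 3.10, 1.07 and 1.01 in control and at 73.8, 78.7 and 124 in knockout. Its control level came from 5 reads, and the ratio was 53.5 (counting interval 22.6 to 166). Control was near 0 for both Prss2 and Cpa1, and replicate 3 was the highest knockout library for Cpa1 but not for Prss2.

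Among the lipid-digesting genes, Pnliprp1 had the largest ratio of the set. It encodes a relative of pancreatic lipase that shows little lipase activity of its own. It stood at 11.4, 16.03 and 17.1 in control and at 936, 984 and 1023 in knockout, with means of 14.8 ± 3.06 and 981 ± 43.6 and a ratio of 66.1 (interval 49.0 to 91.5). The log2 fold change was 5.97 ± 0.17, and the 3 knockout libraries were close to each other. Their coefficient of variation was 4.44%, against 3.12% for counting alone.

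Pnliprp2, its neighbour in the genome, encodes an enzyme that also splits galactolipids of plant food. It was already at 603, 609 and 536 in control and reached 928, 854 and 826 in knockout. The groups were separate but near, with a ratio of 1.49 and a log2 fold change of 0.58 ± 0.08. Clps encodes colipase, the cofactor that holds pancreatic lipase on fat droplets in the presence of bile salts. It stood at 171, 160.3 and 223 in control and at 367, 262 and 269 in knockout, a ratio of 1.62 and a log2 fold change of 0.69 ± 0.15. Replicate 3 was the highest control library of Clps, and replicate 1 lay well above the other knockout libraries.

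Cel encodes bile salt-dependent lipase (carboxyl ester lipase), which cleaves cholesterol esters and other lipid esters. It had 2.06, 3.21 and 0 normalised reads in control, 5 reads in all, and 67.5, 96.8 and 94.4 in knockout. Knockout was 49.1 times control (95% counting interval 20.8 to 152), and the groups did not overlap. Its annotated span overlaps an antisense gene, Gm13381, and without a stated strand setting reads of both cannot be told apart.

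Amy2a5 and Amy2b are pancreatic amylase genes on chromosome 3. Amy2a5 stood at 32.0, 19.2 and 30.2 in control and at 593, 684 and 741 in knockout, a ratio of 24.8 (interval 19.8 to 31.4). Amy2b stood at 24.8, 19.2 and 19.1 in control and at 237, 339.8 and 365 in knockout, a ratio of 14.9 (interval 11.5 to 19.7). GENCODE annotates Amy2b as an unprocessed pseudogene, and RefSeq as protein coding. Of the 50-base windows of the longest Amy2b transcript, 39.1% also occur in Amy2a5, and 57.1% of those of Amy2a5 occur in each of Amy2a2, Amy2a3 and Amy2a4, which were not analysed here. The separate values of the 2 amylases are therefore uncertain. Prss2 shares 7.83% of its windows with other genes, chiefly the trypsinogens Try10 and Try4, and the remaining 7 genes share none.

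The genes lie on 7 chromosomes (GRCm38, which is mm10, GENCODE M21, all positions 1-based). Cela1 is at chr15:100674421-100687921 (minus strand), Clps at chr17:28558149-28560766 (minus), Pnliprp1 at chr19:58728887-58744169 (plus), Pnliprp2 at chr19:58759719-58777534 (plus) and Cel at chr2:28555795-28563403 (minus). Amy2a5 is at chr3:113247178-113258837 and Amy2b at chr3:113147656-113156727 (both minus). Cpa1 is at chr6:30639218-30645363 (plus), Prss2 at chr6:41521787-41525079 (plus) and Ctrb1 at chr8:111686519-111691010 (minus). Clps and Ctrb1 each host a microRNA, Mir6969 and Mir7076.

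Scaled by the length of all annotated exons, the order of levels changed between genotypes. In control, Pnliprp2 led with 371 ± 25.9 normalised reads per kb, followed by Clps with 302 ± 54.4 and Cela1 with 88.1 ± 3.92. Both leading genes overlapped in their library ranges, and each of the other 7 genes stood at 13.3 or less. In knockout, Cela1 led with 607 ± 59.5 per kb, followed by Pnliprp2 (553 ± 33.7), Clps (489.7 ± 95.5) and Pnliprp1 (441 ± 19.6). The library range of each of these 4 overlapped that of the next in order. Ctrb1 (266 ± 39.0), Amy2b (199 ± 43.1), Amy2a5 (169 ± 18.7) and Prss2 (130.1 ± 20.3) formed a second run of overlapping neighbours, and Cpa1 (52.7 ± 15.8) and Cel (41.0 ± 7.73) the last run. Of the summed level per kb of the set, Pnliprp2 made up 46.2% in control and 18.8% in knockout, and Pnliprp1 0.833% in control and 14.96% in knockout. With the length of the longest transcript instead, Cela1 was at 1262 ± 124 and Pnliprp1 at 606 ± 26.9 per kb in knockout, and Pnliprp1 then ranked second.

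**Figure D2:**
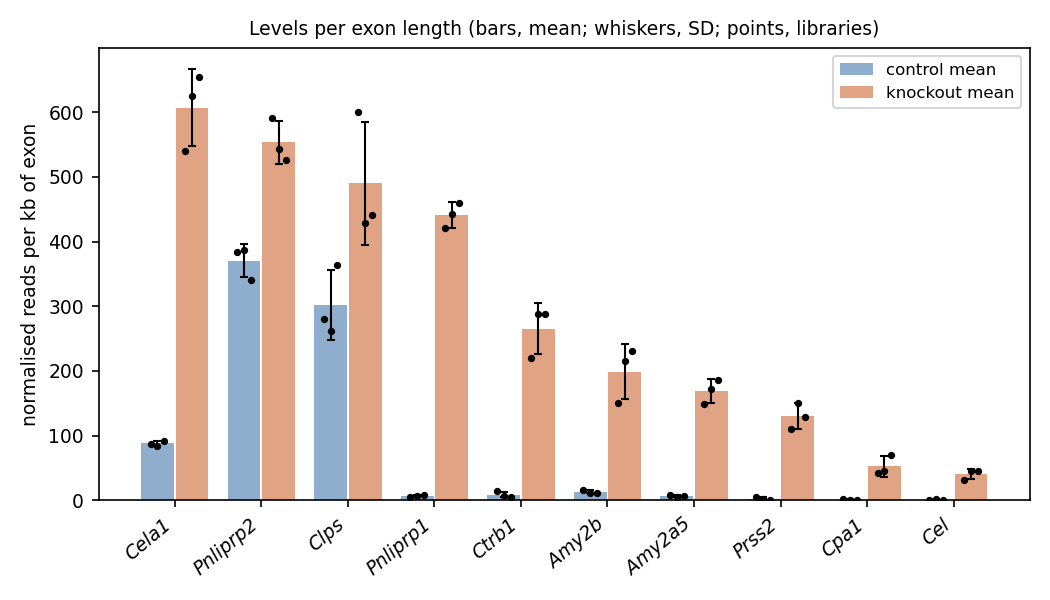
Normalised reads per kb of exon of the 10 genes in control (blue) and knockout (orange), with bars at the mean of 3 libraries, whiskers for the SD and a point per library. Control is close to 0 for all genes but Pnliprp2, Clps and Cela1, and in knockout the leading 4 genes lie between 441 and 607.

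The 3 knockout libraries did not stand in the same order for all enzymes. In the 8 genes other than Clps and Pnliprp2, the first knockout library was the lowest of the 3 every time, while it was the lowest for 35.2% of all tested genes. Relative to the mean of the other knockout libraries it differed by -6.75% for Pnliprp1, -15.6% for Cela1, -16.7% for Amy2a5, -29.4% for Cel and -32.8% for Amy2b. Clps and Pnliprp2 went the other way and were highest in that library, Clps by 38% and Pnliprp2 by 10.5%. This split of the set was made after its values were seen. Among 13 further pancreatic enzymes that were tested, the first knockout library was the lowest for 9, and among 11 Paneth cell markers it was the highest for 8. Whether these patterns are linked was not tested. Without that library the log2 fold changes were 2.86 for Cela1, 4.01 for Amy2b, 0.54 for Clps and 0.53 for Pnliprp2.

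**Figure D3:**
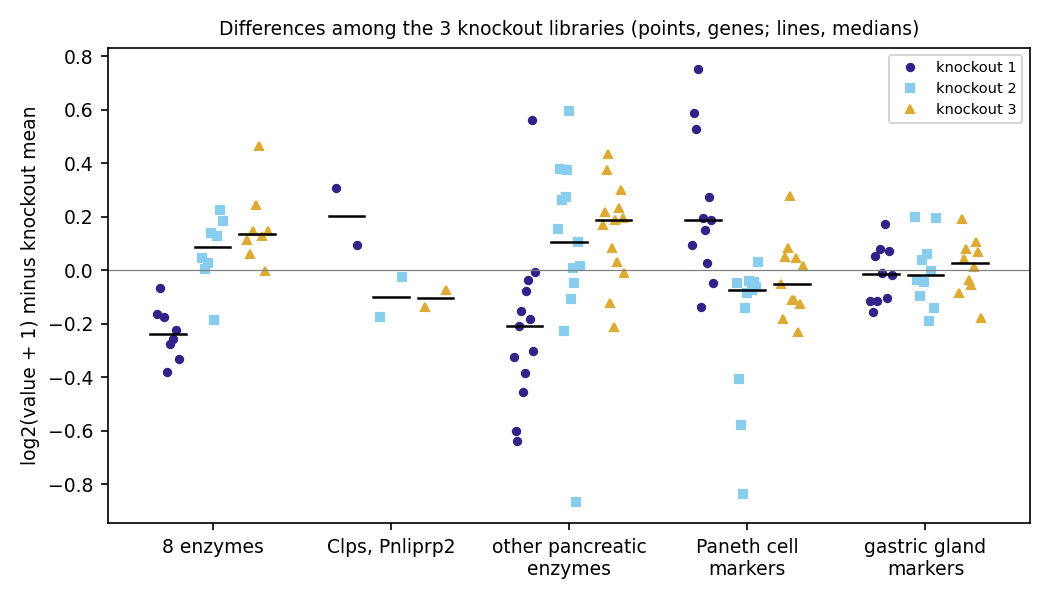
For each gene, log2(value + 1) in each of the 3 knockout libraries minus their mean, grouped as 8 of the enzymes, Clps with Pnliprp2, other pancreatic enzymes, Paneth cell markers and gastric gland markers, with a line at each median. The first knockout library lies below 0 for all 8 enzymes and above 0 for Clps and Pnliprp2.

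Many other enzymes of pancreatic juice were also higher in knockout. Of 26 listed genes, 13 were tested, and 9 were higher, 1 was lower and 3 did not pass (limma, Benjamini-Hochberg adjusted p under 0.05), with a median log2 fold change of 3.54 against 0.01 for all tested genes. Of the 13, 8 had a control library under 10 and needed the knockout libraries to pass the filter on low values. This favours genes that are higher in knockout, and all 8 are among the 9. Of the other 5, 1 was higher (Klk1), 1 lower and 3 did not pass. Without the filter, 10 of 15 genes were higher and 1 lower. Of all genes tested with the filter, 31.6% were higher and 30.9% lower. The list was drawn up with earlier results of these data known. Pnlip, the main pancreatic lipase, stood at 1.03, 2.14 and 1.01 in control and at 145, 159 and 194 in knockout. It is one of the 8, with 4 control reads (ratio 119, counting interval 46.3 to 439, limma adjusted p = 2.04e-12). Also among the 8 were the carboxypeptidase Cpb1 (6.94 ± 1.77 to 76.5 ± 8.97, limma adjusted p = 1.43e-08) and the elastases Cela2a (5.85 ± 1.04 to 79.99 ± 22.4, limma adjusted p = 8.46e-09) and Cela3b (1.68 ± 2.91 to 54.6 ± 9.50, adjusted p = 4.26e-07).

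The trypsinogens Try4 and Try5, again among those 8, went from 9.97 ± 7.59 to 138 ± 25.4 and from 1.74 ± 0.63 to 71.6 ± 23.5 (limma adjusted p = 2.27e-08 and 5.98e-09). The gene 2210010C04Rik, likewise one of them, went from 1.74 ± 0.63 to 93.0 ± 31.7 (limma adjusted p = 7.79e-10). Try4 and Try5 share 4.57% and 4.05% of the windows of Prss2. The tissue kallikrein Klk1, which is not limited to the pancreas, rose from 803.5 ± 68.5 to 1759 ± 41.5 (limma adjusted p = 5.21e-13). Dnase1, a secreted nuclease, was the gene of this list that fell, from 12634 ± 203 to 4406 ± 43.4 (limma adjusted p = 3.28e-19).

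Not every pancreatic-type enzyme followed. The chymotrypsin-like protease Ctrl stood at 79.4 ± 18.8 in control and 98.2 ± 27.5 in knockout, and the groups overlapped (log2 fold change 0.29 ± 0.23, limma adjusted p = 0.27). The ribonuclease Rnase1 stood at 115 ± 5.21 and 89.97 ± 15.8, lower in each knockout library than in any control library, and did not pass (limma adjusted p = 0.084). Amy1, the amylase of salivary gland and liver, stood at 26.5 ± 13.2 and 20.9 ± 9.70 (limma adjusted p = 0.50). It is the nearest tested gene outside the set to the right of both pancreatic amylases, 297 kb from Amy2a5 and 399 kb from Amy2b. Cela3a and Ctrc were too low to be tested, with means of 0.34 and 2.71 in control and 7.75 and 10.1 in knockout.

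The lipase genes Pnlip, Pnliprp1 and Pnliprp2 follow each other on the plus strand of chromosome 19, 47.1 kb and then 15.6 kb apart. Their log2 fold changes were 6.15 ± 0.38, 5.97 ± 0.17 and 0.58 ± 0.08 in that order. The next tested gene, Hspa12a, a heat shock protein 70 relative, fell from 1081 ± 53.5 to 407 ± 63.8 (limma adjusted p = 7.68e-12). The nearest tested neighbours of the enzymes were 16 protein-coding genes outside the set. Of these, 8 were higher, 6 lower and 2 did not pass. Of all tested genes, 31.6% were higher, 30.9% were lower and 3.77% had a log2 fold change over 2. Pnlip and Try5, pancreatic enzyme genes themselves, were among the 3 of the 16 with a log2 fold change over 2. Beside Cela1, both Bin2 (292 ± 35.2 to 109.6 ± 2.07, limma adjusted p = 5.27e-09) and Galnt6 (8362 ± 121 to 7146 ± 55.2, adjusted p = 1.67e-05) fell, the second not under quantile normalization (log2 fold change 0.04, adjusted p = 0.34). Beside Cel, Ralgds stood at 1662 ± 31.5 and 1657 ± 48.7 (limma adjusted p = 0.95), and Gtf3c5 rose from 438 ± 33.3 to 649 ± 22.6 (adjusted p = 2.83e-06). Beside Clps, Fkbp5 fell from 1858 ± 141 to 949 ± 20.9 (limma adjusted p = 3.74e-12).

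**Figure D4:**
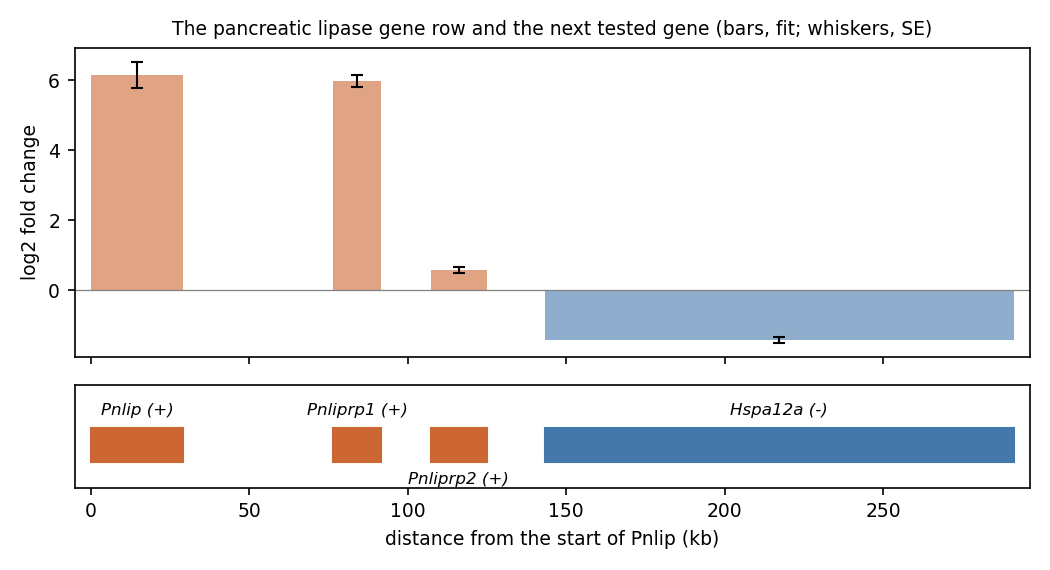
Upper panel, log2 fold change (bars, with SE) of the lipase genes Pnlip, Pnliprp1 and Pnliprp2 and of Hspa12a, each drawn over its own span, and lower panel, the spans as distance in kb from the start of Pnlip with the strand in brackets. The first 2 genes stand near 6, Pnliprp2 at 0.58 and Hspa12a at -1.42.

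Markers of other cells that the tissue could hold moved in the same libraries. The counts of each list below stand beside 31.6% of all tested genes higher and 30.9% lower. Genes of the acinar granule and secretory apparatus were mixed, with 4 of 7 tested genes higher and 2 lower. Of the 4, Sycn and Tmed6 needed the knockout libraries to pass the filter, as not every control library reached its minimum. The granule protein Sycn rose from 8.63 ± 0.62 to 58.3 ± 14.7 (limma adjusted p = 7.84e-07), Tmed6 from 13.7 ± 5.86 to 85.4 ± 17.3 (adjusted p = 2.94e-07), Rab3d, a GTPase of secretory granules, from 574 ± 24.8 to 1589.9 ± 162 (adjusted p = 5.23e-14) and Reg1 from 51617 ± 2624 to 83954 ± 12369.8 (adjusted p = 0.0082). The granule membrane protein Gp2, which M cells of the gut also carry, fell from 64.5 ± 19.9 to 26.4 ± 10.8 (limma adjusted p = 0.0017). Spink1, an inhibitor of trypsin, fell from 21611 ± 2119 to 9912 ± 308 (limma adjusted p = 1.06e-11). The summed level of this list was 68976 to 77917 in control and 81195 to 104141 in knockout.

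Transcription factors of acinar cells did not follow the enzymes. Of 7 tested, 5 were lower and 1 higher, against 30.9% and 31.6% of all tested genes, with a median log2 fold change of -0.29. Bhlha15 fell from 183 ± 7.16 to 117 ± 24.6 (limma adjusted p = 0.00094) and Nr5a2 rose from 474 ± 18.8 to 565 ± 85.7 (adjusted p = 0.032), a call lost under quantile normalization and without control replicate 3. Gata4 (3791 ± 49.6 to 2932 ± 231, limma adjusted p = 1.32e-06) and Xbp1 (7744 ± 345 to 6446 ± 119, adjusted p = 8.06e-06) fell, and Pdx1 stood at 827 ± 71.2 and 889 ± 170.5 (adjusted p = 0.54). Rbpjl, the PTF1 subunit restricted to acinar cells, had 1 read over the control libraries and 4.5, 4.03 and 0 normalised reads in knockout, too few to test. Ptf1a was not analysed here. Most of these factors are also made by intestinal epithelium.

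Of the pancreatic islet markers, 3 were tested and none was higher. Gcg, a hormone gene shared with enteroendocrine cells, fell from 115 ± 13.8 to 83.1 ± 6.09 (limma adjusted p = 0.028), and Iapp stood at 22.1 ± 6.90 and 12.5 ± 3.24 (adjusted p = 0.12). Ins1 and Ins2 were not analysed here. The summed level of the islet list was 2170.0 to 2399 in control and 1184 to 1309.6 in knockout. All 7 duct markers rose, although all of them are also made outside the pancreas. Muc1 among them needed the knockout libraries to pass the filter, as not every control library reached its minimum. The keratin Krt7 rose from 837 ± 70.9 to 6017 ± 107 (limma adjusted p = 4.38e-21) and the secreted phosphoprotein Spp1 from 21.4 ± 6.72 to 1891 ± 172 (adjusted p = 2.02e-17). Their summed level was 29103 to 30653 in control and 53330.1 to 53618 in knockout.

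The list called gastric gland markers, which also holds secreted genes of the gastric pit, had the largest median of these lists, 7.81 on the log2 scale. All 10 tested markers were higher. Of these, 9 had a control library under 10 and needed the knockout libraries to pass the filter, a step that favours genes higher in knockout. The exception was Gkn3. This count and median are therefore not free of the filter. Without the filter, 10 of 12 markers were higher. The summed level of the list was 33.2 to 43.4 in control and 22087 to 23591 in knockout. Pgc, the pepsinogen of chief and other gastric gland cells, rose from 6.53 ± 1.39 to 257 ± 31.8 (limma adjusted p = 7.33e-14), and the gastrokine Gkn3 from 15.9 ± 1.34 to 8051 ± 588 (adjusted p = 1.61e-25). Lipf, the gastric lipase, had 0 reads in control and 580 ± 72.2 normalised reads in knockout (adjusted p = 2.14e-16). The chief cell marker Gif had 2 control reads and 3.83 ± 4.15 in knockout, and the parietal cell gene Atp4b, a partner of Atp4a (1.37 ± 1.58 to 46.8 ± 6.26, limma adjusted p = 2.59e-07), had 0 control reads and 3.98 ± 4.64 in knockout. Gif and Atp4b were too low to be tested. Of 11 tested Paneth cell markers 9 were higher and 1 lower, with sums of 9887 to 10684 in control and 20952 to 24054 in knockout. By edgeR and by DESeq2, 8 were higher. Among the defensins, Defa17 and Defa20 were higher (limma adjusted p = 0.021 and 0.027). The groups of Defa20 overlapped, and it needed the knockout libraries to pass the filter. Defa22 did not pass (limma adjusted p = 0.37), and Defa26 fell from 46.8 ± 9.05 to 18.1 ± 3.33 (adjusted p = 0.00086). The matrix protease Mmp7 rose from 363 ± 10.9 to 4148 ± 503 (limma adjusted p = 1.81e-20) and lysozyme, Lyz1, from 6563 ± 217 to 9163 ± 538 (adjusted p = 2.17e-09). The part of these cell types in the level of the 10 enzymes was not tested.

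Digestive enzymes of the brush border were mostly lower, with a summed level of 960110.4 to 966748 in control and 540692 to 547471 in knockout. Of 18 genes, 14 fell and 1 rose, with a median log2 fold change of -0.77. Tmprss15, the enteropeptidase that turns trypsinogen into trypsin, fell from 9300.3 ± 419 to 5394 ± 905 (limma adjusted p = 0.0053). Mgam, which completes starch digestion after amylase, fell from 175591 ± 5150.0 to 94284 ± 1757 (limma adjusted p = 1.11e-16), and the aminopeptidase Anpep by 1.08 on the log2 scale (adjusted p = 3.52e-18). The exception was the protease subunit gene Mep1a, which rose from 1904 ± 163 to 2862 ± 426 (limma adjusted p = 0.00073).

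**Figure D5:**
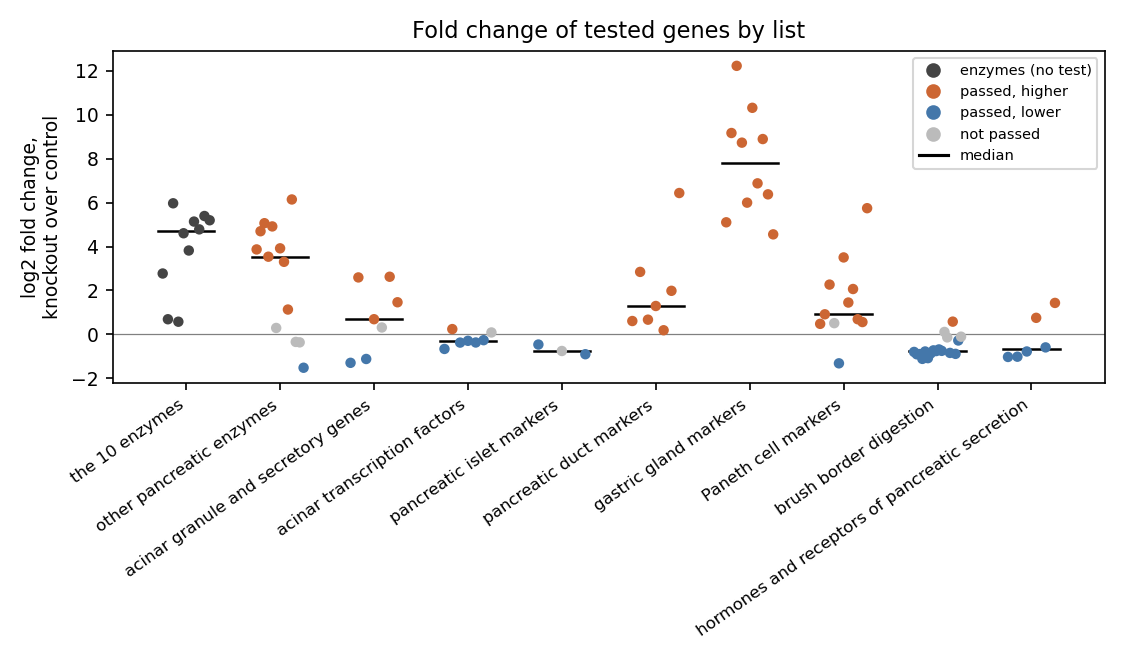
Log2 fold change, knockout over control, of the tested genes of each list, with orange for genes that passed as higher, blue for genes that passed as lower, pale grey for those that did not pass, dark grey for the 10 enzymes, which carry no test, and a line at the median. The medians are 4.70 for the 10 enzymes, 3.54 for other pancreatic enzymes, 7.81 for gastric gland markers and -0.77 for brush border genes. Of the 10 gastric gland markers, 9 needed the knockout libraries to pass the filter, as did 8 of the 13 other pancreatic enzymes and 4 of the 10 enzymes. This favours genes that are higher in knockout, so these medians are not free of the filter.

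By the distance between profiles over the 6 libraries (root mean square difference of log2(value + 1), each gene taken relative to its control mean, from the median of the 10 enzymes), the nearest genes outside the set were Fxyd3 at 0.18, C77370 at 0.19, Sptssb at 0.22, Sox17 at 0.23 and Chsy3 at 0.25. The enzymes themselves lay at 0.20 (Amy2a5) to 2.92 (Pnliprp2). Fxyd3, which modulates the sodium pump, stood at 125 ± 20.1 in control and 3045 ± 128 in knockout. Sptssb, a small subunit of serine palmitoyltransferase, stood at 61.8 ± 10 and 1347 ± 58.5, and the transcription factor Sox17 at 34.97 ± 5.98 and 1058 ± 65.7. C77370 stood at 4.48 ± 1.54 and 133 ± 6.37. Chsy3, a chondroitin synthase, had 3 control reads and 60.5 ± 11.8 in knockout, a ratio of 58.4 (counting interval 19.7 to 286).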

How the data were processed

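RNA-seq of 6 mouse intestine libraries was used. The submitters' processing notes name DESeq2, HTSeq 0.6.1p1, TopHat, TopHat2 2.1.1 and FastQC with mm10 as build, their roles, order and strand setting being not given in the sources used here. The authors deposited a table of signal values per gene and library, which are read counts divided by a size factor. Per the file headers, the same table holds the authors' mean signal, log2 fold changes with SE, a Wald score and p-values, which are not used in the results. Dividing each column by its smallest step gave whole reads for 100% of values (tolerance 0.01). In the third control and second knockout columns that step lies close to 1. Rows with a date for a name (23) stayed unnamed.

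The main test was limma 3.58.1 (trend and robust eBayes, R 4.3.3) on log2(value + 1), genotype as the sole term, for 16600 genes with at least 10 in at least 3 libraries, with Benjamini-Hochberg adjustment and a threshold of 0.05. The step was tested on simulated data. Members and lists were chosen with earlier results of these data known. Named were the 10 members, the tested enzymes of the second list, up to 4 genes per other list by smallest p with its defining markers, the nearest tested neighbours and the 5 nearest profiles. Profiles with both group means under 50 were left out. Beyond this rule Reg1, Bhlha15, Nr5a2, Pdx1, Tmprss15, Mep1a and the defensins Defa17, Defa20, Defa22 and Defa26 were named after their values were seen. Alternatives were the replicate block, other pseudocounts (0.5, 10), no filter or a filter at 50, TMM and quantile scaling, limma without robust estimation, edgeR 4.0.16 and DESeq2 1.42.0 on recovered reads, and leaving out each library. Promoters came from RefSeq (GRCm38.p6) and positions, exon lengths and transcripts from GENCODE M21. The length of the longest transcript as a second measure of length was added after seeing the data. Libraries of 1 genotype were all distinct, with a mean chi-square per gene of 3.73 to 6.92 over the 6 pairs. Some genes of the lists are counted but not reported by name here.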

Additional observations from a re-analysis of the deposited data

How the results depend on the processing

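All 10 enzymes kept a positive log2 fold change under every alternative run. Cpa1 (3.10), Cel (3.03) and Prss2 (3.27) moved most, at a pseudocount of 10, which by its construction shrinks the change of low genes. Cela1 (2.68) and Pnliprp2 (0.46) were lowest under quantile normalization. Clps ranged from 0.49 (quantile normalization) to 0.83 (without the third control library). Quantile normalization gave 2 other pancreatic enzymes lower, 0 acinar transcription factors higher and 3 brush border genes higher, and turned the log2 fold change of Galnt6 to 0.042. The filter at 50 left 1 acinar granule gene and 0 Paneth markers lower, since fewer genes were tested. Leaving out one library gave 1 to 2 islet markers lower, 0 to 1 acinar factors higher and 1 to 2 brush border genes higher. The cause of the other shifts was not tested. Same-numbered libraries did not deviate together (correlations -0.01 to 0.04), and not every library correlated best with its own number. With the replicate number as a block 5251 genes were higher and 5151 lower, against 5248 and 5133 without it, and no list count changed. By edgeR 5376 and 5024 genes passed, and by DESeq2 4980 and 4926. Cpa1, Prss2 and Cel rest on 5 to 6 control reads, which limits the precision of their ratios.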

Other observations

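Genes of the hormonal control of pancreatic secretion moved in both directions. Of 6 tested, 4 fell and 2 rose, against 30.9% and 31.6% of all tested genes. Secretin (Sct), which calls for bicarbonate from the pancreas, fell from 494 ± 37.6 to 242 ± 22.3 normalised reads (limma adjusted p = 9.29e-09), and cholecystokinin (Cck), which calls for enzymes, from 371 ± 50.8 to 216 ± 29.4 (adjusted p = 1.05e-05). The neuropeptide gene Vip rose from 511 ± 26.8 to 864 ± 64.1 (limma adjusted p = 1.37e-08) and its receptor gene Vipr1 fell by 0.59 on the log2 scale (adjusted p = 1.75e-11).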
